A study of Mus musculus with 12 samples.

Results

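The genes described here encode 10 proteins that the transcription repressor GFI1 recruits or works with: Kdm1a, Rcor1, Hdac1, Hdac2, Hdac3, Ehmt2, Prmt1, Cbfa2t3, Pias3 and Sin3a. They were chosen by name, through the array annotation's current or older symbols, by a rule that takes no measured value, though the list was drawn up with earlier results of these data known. All 10 were present, with 132 of the 105661 deposited probe sets and 10 of the 14199 genes that had a value. Kdm1a was annotated under its older symbol Kdm1, and its 17 probe sets were found through the RefSeq synonyms.

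Granulocyte-monocyte precursors (GMPs), the bone marrow progenitors of granulocytes and monocytes, had been sorted by flow cytometry from C57BL/6 mice. Their RNA was amplified with a kit for very small inputs and read on 12 Affymetrix Mouse Gene 1.0 ST arrays. The 4 groups of 3 arrays were GMPs with a knock-in of human Gfi1-SNP36N, the variant under study (SNP), with a Gfi1 knock-out (KO), with a knock-in of human wt-Gfi1 (wtKI), and from wild-type mice (WT). The study looked for genes that differ with the human variant, with acute myeloid leukaemia in view. Treatment, age, sex, zygosity and pooling of mice are not stated for any group. The knock-in groups carry a human protein in a mouse cell, which limits them as a model. The arrays of a group are numbered, but nothing says that each came from a separate mouse. So p-values measure only the spread between these arrays, which may be partly technical. Y-linked values, given below, differed widely within wtKI and within WT, so the arrays of those groups are not all from 1 mouse. For SNP and KO the Y-linked values do not tell.

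GFI1 binds DNA through zinc fingers and silences the genes it sits on with its N-terminal SNAG domain. The SNAG domain docks the histone demethylase LSD1, encoded by Kdm1a, together with its partner CoREST, encoded by Rcor1, and through them the histone deacetylases HDAC1 and HDAC2. GFI1 has also been found with HDAC3, with the histone H3 lysine 9 methyltransferase G9a (Ehmt2), with the arginine methyltransferase PRMT1, with ETO2 (Cbfa2t3), and with the STAT3 inhibitor PIAS3. SIN3A is the scaffold of another deacetylase complex built on HDAC1 and HDAC2. In myeloid precursors, inhibition of LSD1 releases GFI1 target genes. The arrays measure the RNA of these proteins, not their amount or their binding to GFI1.

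GFI1 represses its own gene and its relative Gfi1b by binding an AATC core, so the member promoters were searched for that core. The stretches before the start of Prmt1 and Kdm1a are shown because LSD1 is the docking partner of the SNAG domain and Prmt1 had the smallest p of the members in any comparison, with AATC in capitals. Both are on the minus strand, written 5′ to 3′ in the sense of the gene, from RefSeq on GRCm38.p6. The Prmt1 stretch lies at chr7:44986421-44986670 and the Kdm1a stretch at chr4:136602788-136602973.
Prmt1: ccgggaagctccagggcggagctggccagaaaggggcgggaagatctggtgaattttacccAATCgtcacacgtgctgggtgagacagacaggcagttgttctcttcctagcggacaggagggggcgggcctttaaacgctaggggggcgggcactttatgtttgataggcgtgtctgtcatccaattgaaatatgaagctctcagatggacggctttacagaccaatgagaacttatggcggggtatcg
Kdm1a: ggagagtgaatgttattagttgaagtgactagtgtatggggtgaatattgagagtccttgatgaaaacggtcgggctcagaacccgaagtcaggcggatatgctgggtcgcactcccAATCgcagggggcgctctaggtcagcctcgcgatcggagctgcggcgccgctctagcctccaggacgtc
The promoter table used here held 12 RefSeq windows for 8 of the 10 genes, all but Hdac1 and Hdac3, each from 250 bases before to 50 bases after a transcript start. AATC, on either strand, was in 5 of these 12 windows, which belong to Kdm1a, Pias3, Prmt1 and Sin3a, against 73.1% of all 32851 promoter windows of the same length. The longer core AAATCAC, which contains AATC, was in 0 of the 12 windows on either strand, against 3.2% of all windows. A match is a string of letters and not a measured binding site.

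2 arrays stood apart from the others before any gene was compared. The median correlation with the other arrays over all probe sets was 0.633 for SNP 1 and 0.701 for KO 1, and lay between 0.836 and 0.886 for the remaining 10. Probe sets of one member gene scattered more on them, with a median SD within a gene of 0.87 on SNP 1 and 0.762 on KO 1, against 0.307 to 0.508 elsewhere. GMP markers, 8 of the 9 listed genes including Kit, Mpo and Prtn3, averaged 8.46 on SNP 1 and 9.41 to 9.89 on the other 11 arrays. All 11 late neutrophil genes, all 8 measured erythroid genes and all 6 measured B-lineage genes were highest of the 12 arrays on SNP 1. Their means there were 11.01, 9.78 and 8.96, against at most 7.58, 7.73 and 6.33 on any other array. Of the 4 measured T and NK cell genes, 3 were also highest on SNP 1, with a list mean of 8.49 against at most 6.94 elsewhere. On KO 1 the erythroid mean was 7.73, against 6.00 and 6.29 on KO 2 and KO 3. The B-lineage mean was 6.33 on KO 1, against 5.18 and 5.07, and 4 of 6 genes were above the mean of KO 2 and KO 3. The late neutrophil mean was 6.73, against 6.02 and 5.53, with 7 of 11 genes above. Array values have no true zero, so no marker can be called absent. Y-linked genes averaged between 2.96 and 3.14 on wtKI 2, wtKI 3 and WT 3, and between 7.50 and 8.21 on the others. All SNP and KO arrays were thus on the high side. The Y-linked level is therefore uneven between the groups, most of all in SNP minus wtKI, where it cannot be fully told apart from genotype. Gfi1 itself does not check the KO label, since its gene value was 6.46, 6.91 and 6.70 on the KO arrays, against 5.78, 5.83 and 6.39 on the WT arrays, a difference of 0.69 ± 0.22 (SE, n = 3 arrays each; limma adjusted p = 0.777).

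Because SNP 1 and KO 1 stood apart, differences that involve SNP or KO are mostly given both on all 12 arrays and on the 10 arrays left without them. Counts at an unadjusted p are on 12, and counts of groups without overlap are on 12 unless said otherwise. No member passed the test in any comparison. Gene values are log2 signals, on which a difference of 1 is a doubling, and the test was limma with Benjamini-Hochberg adjustment over all 14199 genes at 0.05. In KO minus WT, wtKI minus WT, SNP minus WT and SNP minus wtKI, 0 of 10 members were called, and 0% of all genes were. In SNP minus KO, 0 of 10 members were called, against 0.0141% of all genes. The F test over the 4 genotypes called 0 members, again against 0% of all genes. With SNP 1 and KO 1 left out, 0 members were called in any comparison, against 0.0282% of all genes in KO minus WT and 0% in the rest. At an unadjusted p under 0.05, Kdm1a and Hdac1 were lower in SNP than in WT and Hdac1 and Prmt1 lower in SNP than in KO, 2 of 10 in each, against 15.9% and 12.7% of all genes. In the other 3 comparisons and the F test, 0 members had an unadjusted p under 0.05, against 4.79% of all genes in KO minus WT, 8.89% in SNP minus wtKI, 3.06% in wtKI minus WT and 9.06% in the F test. The comparisons share groups, so they are not independent of each other.

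**Figure D1:**
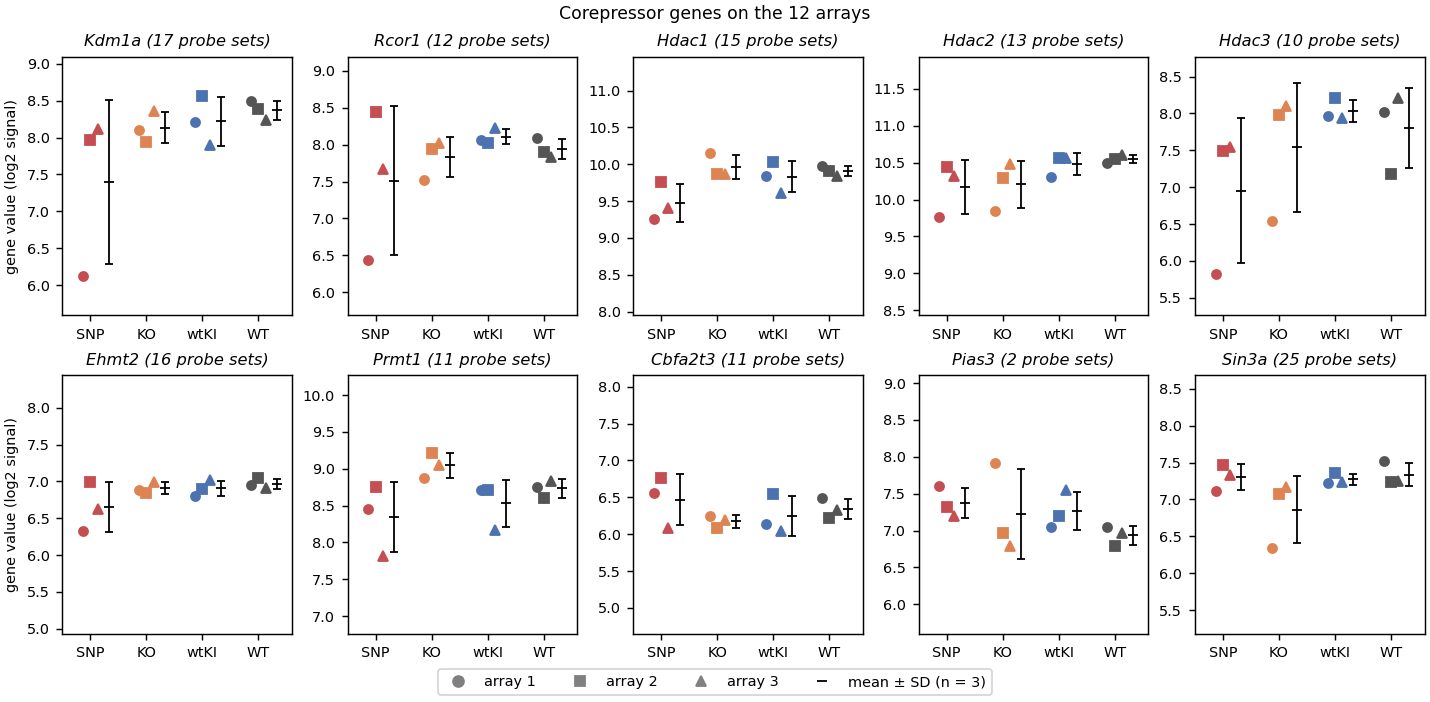
Gene value (log2 signal, y axis, 3.5 units tall in every panel) of the 10 genes on each array, by genotype (x axis). Symbols mark array 1, 2 or 3 and the bars give mean ± SD (n = 3). On SNP 1, Kdm1a, Rcor1 and Hdac3 lie between 1.62 and 1.92 below the mean of SNP 2 and SNP 3, and Hdac3 is at 6.54 on KO 1, below KO 2 and KO 3.

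Kdm1a, the demethylase that the SNAG domain docks, was at 6.12, 7.96 and 8.11 on SNP 1 to SNP 3 and at 8.10, 7.94 and 8.36 on KO 1 to KO 3. It was at 8.21, 8.56 and 7.90 on the wtKI arrays and at 8.49, 8.39 and 8.24 on the WT arrays. All 3 SNP arrays were below all 3 WT arrays, but SNP 1 was far below the other 2. The difference SNP minus WT was -0.97 ± 0.43 (SE, limma; 95% interval -1.92 to -0.03; unadjusted p = 0.0445, adjusted p = 0.306). Without SNP 1 and KO 1 it was -0.33 ± 0.22, with an interval of -0.82 to 0.15. SNP minus wtKI was -0.82 ± 0.43 on 12 arrays and -0.19 ± 0.22 on 10. KO minus WT was -0.24 ± 0.43 on 12 arrays and -0.22 ± 0.22 on 10, and the groups overlapped.

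The neutrophil, erythroid and B-cell marker lists were highest on the same array, SNP 1, on which Kdm1a was 1.92 below the mean of the other SNP arrays. Their part in the difference was not tested. In RNA of a sorted population, fewer cells of a type and less RNA per cell cannot be told apart.

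Rcor1, the CoREST scaffold that couples LSD1 to deacetylases, was at 6.43, 8.44 and 7.66 on the SNP arrays and at 7.52, 7.94 and 8.03 on the KO arrays. It was at 8.07, 8.03 and 8.22 on the wtKI arrays and at 8.09, 7.89 and 7.84 on the WT arrays. SNP 2 was the highest and SNP 1 the lowest of all 12 arrays. The difference SNP minus wtKI was -0.59 ± 0.39 on 12 arrays and -0.05 ± 0.22 on 10. SNP minus WT was -0.43 ± 0.39 on 12 arrays and turned to 0.11 ± 0.22 on 10. The difference KO minus WT was -0.11 ± 0.39 and turned to 0.04 ± 0.22, with a 95% interval of -0.45 to 0.53.

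Of the 3 deacetylase genes, only Hdac1 had all SNP arrays below all arrays of both KO and WT. Its value was 9.26, 9.76 and 9.40 on the SNP arrays and 10.15, 9.87 and 9.87 on the KO arrays. It was 9.84, 10.03 and 9.61 on the wtKI arrays, and the WT arrays gave 9.98, 9.91 and 9.84. The SNP and wtKI groups overlapped, since wtKI 3 lay below SNP 2. SNP minus KO was -0.49 ± 0.18 (limma; interval -0.89 to -0.08; unadjusted p = 0.0222, adjusted p = 0.345) and SNP minus WT -0.44 ± 0.18 (unadjusted p = 0.0367, adjusted p = 0.299). On 10 arrays these were -0.29 ± 0.19 and -0.33 ± 0.17, without overlap. With fewer arrays a group this is common: of 14199 genes, 3562 were wholly lower in SNP than in KO and 2493 than in WT. Between SNP and wtKI the Hdac1 difference was -0.35 ± 0.18 on 12 arrays and -0.25 ± 0.17 on 10. Between KO and WT it was 0.05 ± 0.18 and turned to -0.04 ± 0.17. One of its 15 probe sets, 10447005, lies by its number between probe sets of Crim1 and Vit, next to which RefSeq places the pseudogene Hdac1-ps, so that this probe set may read the copy. Leaving it out gave -0.47 for SNP minus KO.

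Hdac2, the close paralogue of Hdac1 in the same complexes, was at 9.76, 10.44 and 10.32 on the SNP arrays and at 9.85, 10.29 and 10.48 on the KO arrays. It was at 10.30, 10.57 and 10.56 on the wtKI arrays and at 10.49, 10.55 and 10.60 on the WT arrays. All SNP and all KO arrays were below all WT arrays. For KO minus WT the difference was -0.34 ± 0.22 (limma adjusted p = 1.00) on 12 arrays and -0.17 ± 0.15 on 10. SNP minus WT was -0.37 ± 0.22 on 12 arrays and -0.17 ± 0.15 on 10, and SNP minus wtKI was -0.30 ± 0.22 and -0.10 ± 0.15. On KO 1 Hdac2 was 0.53 below the mean of KO 2 and KO 3, and on SNP 1 it was 0.62 below the mean of SNP 2 and SNP 3.

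Hdac3, the catalytic subunit of the NCoR complexes, had the widest spread of the 10 genes on 12 arrays, with a pooled SD within groups of 0.715. On 10 arrays it was 0.329, and that of Prmt1 was 0.337. It was at 5.82, 7.50 and 7.55 on the SNP arrays and at 6.54, 7.98 and 8.10 on the KO arrays. It was at 7.97, 8.21 and 7.94 on the wtKI arrays and at 8.03, 7.18 and 8.20 on the WT arrays. All SNP arrays lay below all wtKI arrays, and WT 2 lay below SNP 2 and SNP 3. SNP minus wtKI was -1.08 ± 0.51 (limma; interval -2.21 to 0.04; adjusted p = 0.55) on 12 arrays and -0.52 ± 0.27 on 10, without overlap on either. On 10 arrays 1645 of 14199 genes were wholly lower in that comparison. KO minus WT was -0.27 ± 0.51 on 12 arrays and 0.24 ± 0.27 on 10, so its sign rests on KO 1. SNP minus KO was -0.58 ± 0.51 on 12 arrays and -0.52 ± 0.30 on 10. It was -0.02 without SNP 1 alone and -1.09 without KO 1 alone, so its size rests on these 2 arrays.

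Of the methyltransferase genes among the members, Prmt1 differed more between SNP and KO than Ehmt2. PRMT1 makes most of the asymmetric dimethylarginine of mammalian cells. Prmt1 was at 8.46, 8.76 and 7.82 on the SNP arrays and at 8.88, 9.21 and 9.05 on the KO arrays. It was at 8.71, 8.71 and 8.17 on the wtKI arrays and at 8.76, 8.60 and 8.84 on the WT arrays. The KO arrays were the 3 highest of the 12, and SNP 3 the lowest. SNP minus KO was -0.70 ± 0.25 (limma; interval -1.24 to -0.16; unadjusted p = 0.0163, adjusted p = 0.334) and on 10 arrays -0.84 ± 0.30 (adjusted p = 0.247). Without SNP 3 it was -0.44, and the single probe set with the highest mean gave -0.06. With arrays weighted by their agreement with the fit, it was -0.99 and passed the test (adjusted p = 0.038), and KO 2 then carried a weight of 6.82 against 0.167 to 2.71 for the others. Prmt1 was also 0.31 ± 0.25 higher in KO than in WT on 12 arrays and 0.40 ± 0.28 on 10, without overlap on either. On 10 arrays 1727 of 14199 genes were wholly higher in that comparison. The difference SNP minus wtKI was -0.19 ± 0.25 on 12 arrays and -0.24 ± 0.28 on 10, and it was 0.08 without SNP 3.

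The mast cell and basophil markers, all 5 of them measured, also separated KO from SNP and WT. Their mean lay between 9.03 and 9.30 on the KO arrays, against 7.31 to 8.10 on the SNP arrays, 7.56 to 9.05 on the wtKI arrays and 7.16 to 8.18 on the WT arrays. Their part in the KO differences of Prmt1, Hdac2, Sin3a and the partner genes was not tested.

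Ehmt2, which encodes the H3 lysine 9 methyltransferase G9a, was at 6.33, 7.00 and 6.63 on the SNP arrays and at 6.89, 6.84 and 7.00 on the KO arrays. It was at 6.80, 6.90 and 7.01 on the wtKI arrays and at 6.95, 7.05 and 6.91 on the WT arrays. Every pair of groups overlapped. KO minus WT was -0.06 ± 0.18 with an interval of -0.46 to 0.34 on 12 arrays and -0.05 ± 0.16 on 10, and wtKI minus WT was -0.06 ± 0.18. SNP minus wtKI was -0.25 ± 0.18 on 12 arrays and -0.09 ± 0.16 on 10. Its pooled SD was 0.184, the lowest of the 10 genes on 12 arrays.

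Cbfa2t3, which encodes the ETO-family corepressor ETO2, was at 6.56, 6.76 and 6.09 on the SNP arrays and at 6.25, 6.08 and 6.19 on the KO arrays. It was at 6.14, 6.55 and 6.04 on the wtKI arrays and at 6.48, 6.22 and 6.33 on the WT arrays. All 4 groups overlapped on 12 arrays, but on 10 the remaining KO arrays lay below all WT arrays. For SNP minus wtKI the difference was 0.22 ± 0.21 on 12 arrays and 0.18 ± 0.23 on 10, and it was 0.08 without SNP 2. KO minus WT was -0.17 ± 0.21 on 12 arrays and -0.21 ± 0.23 on 10.

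Sin3a, the scaffold of the SIN3 deacetylase complex, was at 7.12, 7.47 and 7.34 on the SNP arrays and at 6.35, 7.07 and 7.17 on the KO arrays. It was at 7.23, 7.36 and 7.23 on the wtKI arrays and at 7.52, 7.23 and 7.25 on the WT arrays. The KO arrays lay below all WT arrays, with KO 1 the lowest of the 12. KO minus WT was -0.47 ± 0.22 (limma; interval -0.96 to 0.01; unadjusted p = 0.0555, adjusted p = 1.00) on 12 arrays and -0.21 ± 0.15 on 10. SNP minus KO was 0.45 ± 0.22 and 0.28 ± 0.16, while SNP minus wtKI was 0.04 ± 0.22 and 0.13 ± 0.15. The direction depended on the probe sets, since the single one with the highest mean gave 0.22 for KO minus WT, -0.18 for SNP minus KO and -0.24 for SNP minus wtKI.

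Pias3, which encodes an inhibitor of STAT3 and SUMO ligase, rests on 2 probe sets. It was at 7.60, 7.32 and 7.20 on the SNP arrays and at 7.92, 6.97 and 6.78 on the KO arrays. It was at 7.05, 7.20 and 7.55 on the wtKI arrays and at 7.05, 6.80 and 6.96 on the WT arrays. All SNP arrays were above all WT arrays, and KO 1 was 1.04 above the mean of KO 2 and KO 3. SNP minus WT was 0.44 ± 0.28 (limma adjusted p = 0.412) on 12 arrays and 0.32 ± 0.18 on 10. wtKI minus WT was 0.33 ± 0.28, but 0.19 without wtKI 3 and 0.02 with only the probe set of the highest mean. KO minus WT was 0.29 ± 0.28 on 12 arrays and -0.06 ± 0.18 on 10.

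**Figure D2:**
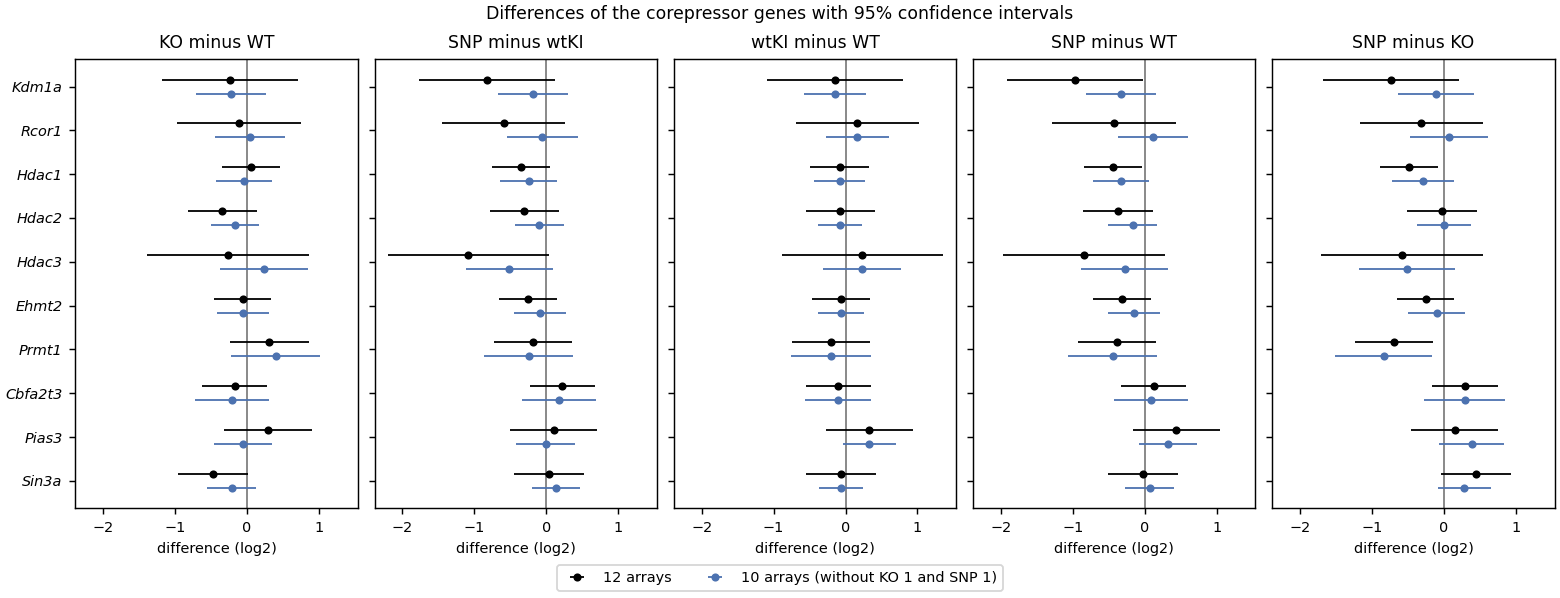
Difference between genotypes (log2, x axis) of the 10 genes (y axis) in the 5 comparisons, with 95% confidence intervals, on 12 arrays (black) and on 10 arrays, with KO 1 and SNP 1 left out (blue). On 12 arrays the intervals of Kdm1a and Hdac1 in SNP minus WT and of Hdac1 and Prmt1 in SNP minus KO do not reach 0, and on 10 arrays only that of Prmt1 in SNP minus KO does not.

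On 12 arrays more members were lower than higher in each comparison: 8 of 10 were lower in SNP minus WT and 7 of 10 in each of the other comparisons. This did not hold under 3 alternatives. Without SNP 1, 5 of 10 were lower in SNP minus KO, with a median of 0.01. In wtKI minus WT 4 of 10 were lower without wtKI 3 and 4 of 10 with the probe set of the highest mean, with medians of 0.01 and 0.03. Of all genes, 53.2% were lower in KO minus WT, 52.5% in SNP minus wtKI, 51.2% in wtKI minus WT, 50.8% in SNP minus WT and 48.7% in SNP minus KO. The median member difference was -0.14 in KO minus WT, -0.28 in SNP minus wtKI, -0.07 in wtKI minus WT, -0.38 in SNP minus WT and -0.29 in SNP minus KO. The median of all genes lay between -0.02 and 0.01. Without SNP 1 and KO 1 the member median was -0.06 in KO minus WT, -0.09 in SNP minus wtKI, -0.16 in SNP minus WT and -0.05 in SNP minus KO. Against SNP 2 and SNP 3, 7 of 10 members were lower on SNP 1, with a median of -0.40, beside 53.8% of all genes and a median of -0.06.

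Groups without overlap were counted as a description. In KO minus WT this held for Prmt1, higher, and for Hdac2 and Sin3a, lower, 3 of 10 against 11.9% of all genes. In SNP minus wtKI it held for Hdac3, lower, 1 of 10 against 14.6%. In wtKI minus WT it held for 0 of 10, against 12.6%. In SNP minus WT it held for Pias3, higher, and for Kdm1a, Hdac1 and Hdac2, lower, 4 of 10 against 25.7%. In SNP minus KO it held for Hdac1 and Prmt1, lower, 2 of 10 against 14%. On 10 arrays lack of overlap was more common, given here as genes wholly higher and wholly lower of 14199. In SNP minus KO these were 3630 and 3562, beside 2 and 3 members. In SNP minus WT they were 2579 and 2493, beside 1 and 3 members. In KO minus WT they were 1727 and 1813, beside 1 and 3 members. In SNP minus wtKI they were 1594 and 1645, beside 0 and 1 members.

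The single probe sets, which read different stretches of one transcript and share its RNA, gave 0 calls among the 132 in any comparison. Tested over all 105661 probe sets, 0.00284% were called in KO minus WT and in SNP minus wtKI, 0.00189% in wtKI minus WT and in SNP minus KO, and 0% in SNP minus WT. Hdac1 had 15 of 15 probe sets lower in SNP minus wtKI and in SNP minus WT, and 15 of 15 again in both on 10 arrays. Kdm1a had 16 of 17 probe sets lower in SNP minus wtKI and 13 of 17 on 10 arrays. Its probe set 10517484 went the other way, at 1.22. Prmt1 had 10 of 11 probe sets lower in SNP minus KO and 11 of 11 on 10 arrays, and the one that was higher on 12 arrays, 10563025, was at 0.50.

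Hdac2 had 13 of 13 probe sets lower in KO minus WT, on 12 and on 10 arrays. Its furthest, 10362523, was at -1.11. Sin3a had 20 of 25 lower in KO minus WT, with 10585648 at -1.94, and 19 of 25 on 10 arrays. Hdac3 had 9 of 10 lower in SNP minus wtKI, with 10458464 at -2.50, and 8 of 10 on 10 arrays. Rcor1 had 10 of 12 lower in SNP minus wtKI, but 6 of 12 on 10 arrays. Cbfa2t3 had 4 of 11 lower in SNP minus wtKI, and Pias3 had 1 of its 2. Ehmt2 had 12 of 16 lower in SNP minus wtKI and 10 of 16 on 10 arrays. Over all member probe sets, 98 of 132 were lower in SNP minus wtKI, beside 57.6% of all probe sets, and 87 of 132 in KO minus WT, beside 55.4%.

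**Figure D3:**
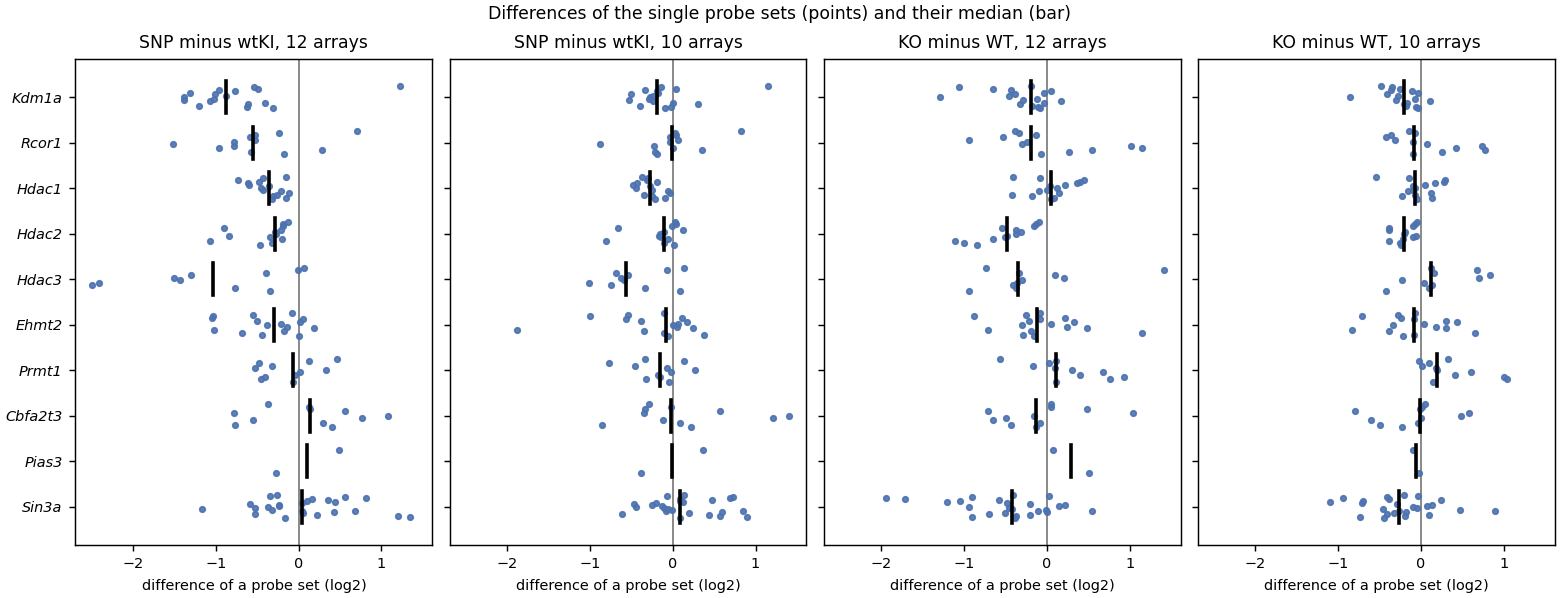
Difference of each probe set (log2, x axis; points) of the 10 genes (y axis), with the median of the gene's probe sets as a bar, in SNP minus wtKI and KO minus WT on 12 and on 10 arrays. All 15 Hdac1 probe sets lie below 0 in both SNP minus wtKI panels and all 13 Hdac2 probe sets below 0 in both KO minus WT panels, while Kdm1a and Hdac3 move closer to 0 in SNP minus wtKI on 10 arrays.

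Partners of the same complexes were read beside the members from 8 lists, of which 74 genes had a value. None passed the test: 0 of 74 were called in each of the 5 comparisons. In SNP minus wtKI, 56 of 74 were lower, beside 52.5% of all genes, with a median of -0.18. On 10 arrays 51 of 74 were lower, beside 50.6% of all genes, with a median of -0.05. In KO minus WT, 45 of 74 were lower, beside 53.2% of all genes, with a median of -0.07. On 10 arrays 43 of 74 were lower there, beside 52% of all genes, with a median of -0.05. The late neutrophil, erythroid and B-lineage markers were highest on SNP 1, and their part in these differences was not tested. On 12 arrays, 0 of 74 were wholly higher and 10 wholly lower in SNP minus wtKI, beside 14.6% of all genes without overlap. In KO minus WT these were 3 and 8 of 74, beside 11.9%. The values named below are those with the smallest p of each list, and none passed the test. Genes picked in this way tend to lack overlap, so its mention below is a description only.

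In the CoREST list, 9 of 10 genes were lower in SNP minus wtKI on 12 arrays and 8 of 10 on 10. The CoREST paralogue Rcor3 was at 6.49, 6.72 and 6.28 on the SNP arrays, against 6.89, 6.95 and 7.43 on the wtKI arrays. Rcor2, another paralogue, was at 6.07, 5.94 and 5.93 on the SNP arrays, against 6.27, 6.36 and 6.57 on the wtKI arrays. Neither overlapped, and their differences were -0.59 ± 0.21 and -0.42 ± 0.16 on 12 arrays and -0.59 ± 0.21 and -0.47 ± 0.16 on 10 (limma adjusted p = 0.55 for both on 12). Between KO and WT, 3 of 10 were lower on 12 arrays, with a median of 0.06, and 6 of 10 on 10 arrays, with a median of -0.03. Phf21a, which encodes the CoREST subunit that reads unmethylated H3 lysine 4, was at 7.59, 7.09 and 7.84 on the KO arrays, against 7.89 to 8.36 on the WT arrays, a difference of -0.57 ± 0.21 (limma adjusted p = 0.924). Gse1 was at 0.40 ± 0.22 in KO minus WT and at 0.21 ± 0.21 on 10 arrays, with overlap.

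In the SIN3 list, 10 of 14 genes were lower in SNP minus wtKI on 12 arrays and 9 of 14 on 10. Brms1, a subunit of the SIN3 complex, was at 5.94, 7.29 and 6.77 on the SNP arrays, against 7.36, 7.63 and 7.80 on the wtKI arrays, a difference of -0.93 ± 0.30 on 12 arrays and -0.57 ± 0.20 on 10. Ing2, whose product brings the complex to methylated H3 lysine 4, was at 7.56, 7.99 and 8.13 on the SNP arrays, against 8.51, 8.50 and 8.41 on the wtKI arrays. Its difference was -0.58 ± 0.18 on 12 arrays and -0.42 ± 0.16 on 10. Neither gene overlapped between the groups, and the limma adjusted p was 0.55 for both. Between KO and WT, 8 of 14 were lower, with a median of -0.09, and 7 of 14 on 10 arrays, with a median of 0.04. There Arid4b (0.27 ± 0.14, and 0.22 ± 0.14 on 10) and the Sin3a paralogue Sin3b (-0.23 ± 0.18, and -0.16 ± 0.17 on 10) had the smallest p on 12.

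In the NCoR and ETO list, Cbfa2t2, the ETO-family relative of Cbfa2t3, was at 5.88, 5.46 and 6.16 on the KO arrays, against 6.18, 6.90 and 7.46 on the WT arrays. It was at 6.41, 6.15 and 6.18 on the wtKI arrays and at 5.99, 6.59 and 7.38 on the SNP arrays, and both groups overlapped KO. All KO arrays lay below all WT arrays, the highest of them just below the lowest WT array. The difference was -1.01 ± 0.38 on 12 arrays and -1.04 ± 0.37 on 10 (limma adjusted p = 0.939 and 0.575), and 4 of 5 genes of the list were lower on 12 arrays and 5 of 5 on 10. In SNP minus wtKI, Cbfa2t2 was at 0.41 ± 0.38 with overlap on 12 arrays and at 0.74 ± 0.37 without overlap on 10. Tbl1x, a subunit of the NCoR complex, was at -0.48 ± 0.20 and -0.28 ± 0.17, and 2 of 5 genes of the list were lower on 12 arrays and 1 of 5 on 10. Tbl1xr1 was -0.42 ± 0.26 in KO minus WT and -0.20 ± 0.23 on 10 arrays.

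In the NuRD list, a remodelling complex that also contains HDAC1 and HDAC2, 8 of 9 genes were lower in SNP minus wtKI on 12 arrays and 9 of 9 on 10. Mta2 was at -0.56 ± 0.21 on 12 arrays and -0.39 ± 0.19 on 10, and Mta1 at -0.76 ± 0.32 and -0.34 ± 0.21. Between KO and WT, 7 of 9 were lower on 12 arrays and 6 of 9 on 10. Mbd2, the subunit that binds methylated DNA, was at -0.51 ± 0.40 with all arrays and at 0.09 ± 0.17 on 10, since it was at 8.30 on KO 1 and at 10.04 and 10.13 on KO 2 and KO 3. Its relative Mbd3 was at -0.33 ± 0.27 and -0.21 ± 0.29.

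Of the genes for H3 lysine 9 methylation and its readers, 9 of 9 were lower in SNP minus wtKI, and 7 of 9 on 10 arrays. Trim28, the corepressor of KRAB zinc-finger proteins, was at -0.68 ± 0.33 on 12 arrays and -0.19 ± 0.15 on 10. Cbx1, an HP1 reader of the mark, was at -0.42 ± 0.21 and -0.19 ± 0.14. In KO minus WT, 8 of 9 were lower and 4 of 9 on 10 arrays, with Suv39h1 at -0.50 ± 0.36 and -0.27 ± 0.18 and Setdb1 at -0.35 ± 0.26 and -0.09 ± 0.19.

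Of the arginine methyltransferase and SUMO genes, 9 of 11 were lower in SNP minus wtKI and 8 of 11 in KO minus WT, and on 10 arrays 8 of 11 and 7 of 11. The Pias3 relative Pias1 was at 7.03, 7.35 and 7.83 on the KO arrays, against 7.96, 8.27 and 7.87 on the WT arrays, a difference of -0.63 ± 0.22 on 12 arrays and -0.44 ± 0.22 on 10 (limma adjusted p = 0.881 and 0.769). Senp1, a SUMO protease, was at -0.37 ± 0.25 in KO minus WT and at -0.09 ± 0.17 on 10 arrays. Prmt7 was at -0.69 ± 0.34 in SNP minus wtKI and at -0.45 ± 0.21 on 10 arrays, and Sumo3 at -0.46 ± 0.23 and -0.21 ± 0.15.

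Among other deacetylases and demethylases, 4 of 10 were lower in SNP minus wtKI and 4 of 10 in KO minus WT, and on 10 arrays 5 of 10 in both. The class II deacetylase genes Hdac9 and Hdac7 were at 0.38 ± 0.27 and 0.29 ± 0.22 in KO minus WT, and at 0.43 ± 0.29 and 0.17 ± 0.23 on 10 arrays. In SNP minus wtKI, Hdac7 was at -0.23 ± 0.22 on 12 arrays and -0.15 ± 0.23 on 10, and Hdac10 at 0.20 ± 0.21 and 0.30 ± 0.22. Of the other reported GFI1 partners, 5 of 6 were lower in SNP minus wtKI and 3 of 6 in KO minus WT, and on 10 arrays 4 of 6 and 3 of 6. Ajuba, which encodes a LIM-domain adaptor, was at 6.93, 6.45 and 6.52 on the KO arrays, against 6.43, 6.32 and 6.21 on the WT arrays, a difference of 0.31 ± 0.22 on 12 arrays and 0.17 ± 0.23 on 10. Rela, the NF-kB subunit, was at -0.35 ± 0.30 in KO minus WT and at -0.13 ± 0.27 on 10 arrays. In SNP minus wtKI it was at -0.21 ± 0.30 and at -0.42 ± 0.27 on 10 arrays, and Runx1 was at -0.39 ± 0.28 in SNP minus wtKI and at -0.01 ± 0.16 on 10 arrays. Gfi1b, the GFI1 paralogue, was 0.45 ± 0.18 higher in KO than in WT, without overlap (limma adjusted p = 0.993), and 0.34 ± 0.17 on 10 arrays. Between SNP and wtKI it was at 0.08 ± 0.18 on 12 arrays and at 0.0036 ± 0.17 on 10.

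**Figure D4:**
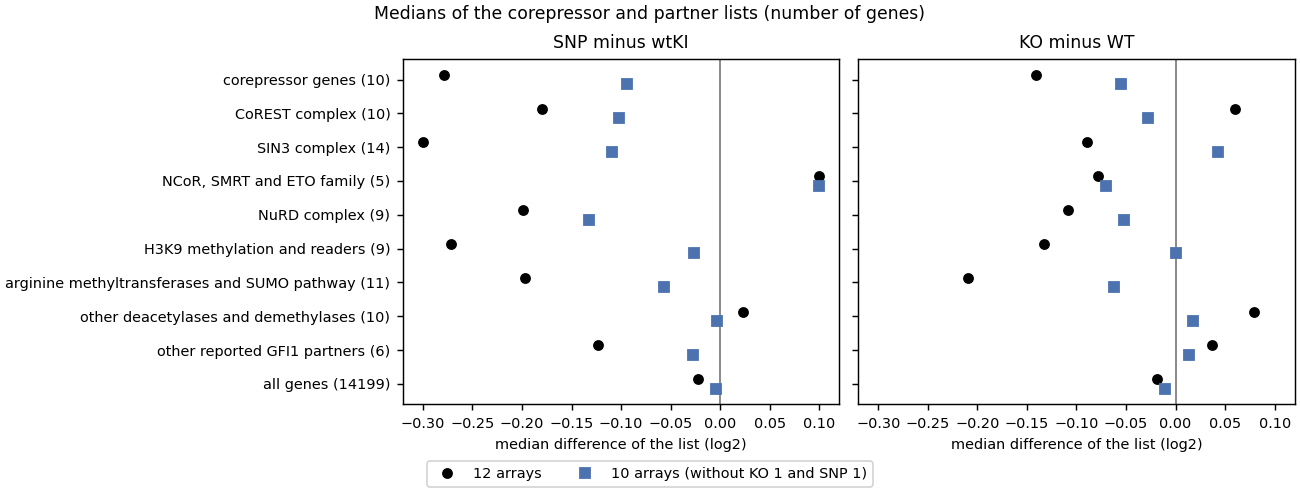
Median difference (log2, x axis) of the 10 corepressor genes, the 8 partner lists and all genes (y axis, number of genes in brackets) in SNP minus wtKI and KO minus WT, on 12 arrays (black circles) and on 10 arrays (blue squares). In SNP minus wtKI the median of the 10 genes is -0.28 on 12 arrays and -0.09 on 10, and that of the SIN3 list -0.30 and -0.11.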

How the data were processed

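The deposited values are log2 signals of exon-level probe sets. They came from RMA according to the submitters' processing notes, and neither version nor settings are given in the sources used here. The lowest row maximum is 6.14, so rows low on every array are missing. Only the 98975 probe sets annotated to 1 gene symbol named genes; 1756 symbols were updated through the RefSeq table of GRCm38.p6. A gene's value on an array is the median polish of its probe sets. Comparisons were fitted with limma 3.58.1 in R 4.3.3 (lmFit, eBayes) on all 12 arrays, checked on simulated data, with Benjamini-Hochberg adjustment over 14199 genes. Errors beside differences are SE, with 3 arrays a group on all 12 arrays. On the 10 arrays, SNP and KO each had 1 array fewer. The number of arrays limits the precision.

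The members, the partner and marker lists and the tests were chosen with earlier results of these data known. Named were the 10 members in every comparison, their probe sets furthest from the gene value, Gfi1, Gfi1b, per partner list the 2 genes with the smallest p in KO minus WT and SNP minus wtKI where none passed, and for Kdm1a, Rcor1 and Cbfa2t3 the 3 genes most correlated with each. Alternatives were other summaries of the probe sets, median centring, repeated quantile normalization, a filter on the dimmest 30% of genes, a robust prior with a variance trend, weights for arrays, a block for the replicate number, the Y-linked level as a covariate, only the groups compared, and each array left out. The Hdac1 value without probe set 10447005 and the pairwise fit without SNP 1 and KO 1 were added after seeing the data.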

Additional observations from a re-analysis of the deposited data

How the results depend on the processing

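Over 26 alternatives, 0 members were called in each comparison, as on all 12 arrays, with 1 exception. With array weights, Prmt1 was called in SNP minus KO (1 member, adjusted p = 0.038) and in the F test over the 4 genotypes (1 member, adjusted p = 0.0495); over all genes the weights gave 516 calls against 2 in SNP minus KO, 784 against 0 in the F test and 499 against 0 in KO minus WT. The plain mean of the probe sets gave 13 calls against 2 in SNP minus KO and 3 against 0 in KO minus WT. Leaving out each array in turn gave 0 called members in every comparison. Of 1285 member differences recomputed, 62 changed sign, none of them called, and 64 moved by over 1 SE. Median centring moved the median of all genes in SNP minus WT to 0.12, and 7 of 10 members were then lower there and 6 of 10 in SNP minus KO. With the Y-linked level as a covariate, 492 genes had a limma unadjusted p under 0.05 in SNP minus wtKI, against 1263 without it. The lowest limma adjusted p of a member there was 0.898, against 0.55. With the replicate number as a block, 0 members were called in each comparison (lowest adjusted p = 0.277, in SNP minus WT). Same-numbered arrays deviated together with correlations of -0.19 to 0.35, and 3 of 12 arrays correlated best with their own number. This gave no sign that the numbers pair the arrays, but with 3 arrays a group it cannot exclude pairing. Leaving out the dimmest 30% of genes dropped 1 member, Cbfa2t3, and 9 were tested.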

Other observations

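The genes whose values ran most like those of Kdm1a over the 10 arrays without SNP 1 and KO 1 were Pstpip2 (Pearson r = 0.929), Vwa5a (0.928) and Ltbr (0.919). Over all 12 arrays they were Bhlhb9 (0.982), Eif3i (0.97) and Ccnh (0.965). For Rcor1 they were Ubr4 (0.952), Rab40c (0.893) and Phf2 (0.889) over 10 arrays, and Nat10 (0.97), Pdcd7 (0.969) and Macroh2a1 (0.967) over 12. For Cbfa2t3 they were Dr1 (0.915), Dock8 (0.911) and Il21r (0.899) over 10 arrays, and Il21r (0.903), Dr1 (0.872) and Lasp1 (0.818) over 12. No gene is in both sets for Kdm1a or for Rcor1, while Dr1 and Il21r are in both sets for Cbfa2t3. These are the highest of 14199 genes over few arrays that share genotypes and normalization, and they are given as a description only.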
